A study of Rattus norvegicus with 12 samples.

Results

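The 10 genes described here encode the epidermal growth factor (EGF) receptor (Egfr), its ligands heparin-binding EGF (Hbegf), amphiregulin (Areg) and epiregulin (Ereg), the receptor inhibitor Errfi1, the Sprouty proteins Spry1, Spry2 and Spry4, and the Spred proteins Spred1 and Spred2. They were chosen by symbol: every probe of the array whose gene name is one of these symbols was taken, which gave 16 of the 41012 probes, for 10 of the 33212 gene names. PC12 cells, a line from a rat adrenal pheochromocytoma, received PACAP38 (pituitary adenylate cyclase-activating polypeptide) at 1e-07 M for 5, 10, 15, 30, 60 or 120 min, and each time point had control cells of its own, labelled only as control. All cells were kept in medium with fetal bovine and horse serum on a type IV collagen coat. RNA of 6 cultures was pooled for each treatment and time, and the PACAP38 pool and its control pool were hybridised together on a pair of two-colour Agilent arrays with the dyes exchanged. The 12 arrays therefore hold 1 replicate per time point, so that PACAP38 and control could be tested against each other at no time point alone. The values of both arrays are given in place of an error, and they show the technical spread only. A growth medium with serum, 1 cell line and 6 separate control pools are the limits of this model, and in bulk RNA a change in the number of cells cannot be told apart from a change in RNA per cell.

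The EGF receptor is a receptor tyrosine kinase that signals through Ras to the kinase ERK when a ligand is bound. Its ligands are made as membrane proteins, from which ADAM proteases release the active growth factor, so that a cell can stimulate itself and its neighbours. Errfi1, also named Mig6 or RALT, binds the active kinase domain of the receptor and blocks it. Sprouty and Spred proteins inhibit the pathway between the receptor and ERK, Spred proteins by way of neurofibromin, the Ras inhibitor encoded by Nf1. In many cells ERK activity raises the transcripts of these inhibitors and of the ligands, which makes up a negative and a positive loop. In PC12 cells, EGF is known for a short ERK response with cell division, and nerve growth factor for a long one with neurite growth.

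Promoter sequences are shown for the 3 genes that rose after PACAP38 (Errfi1, Egfr and Hbegf) and, beside them, for Areg, whose transcript was not well above background. Each is the 250 bases before the annotated start on the strand of the gene, 5′ to 3′, from RefSeq on GRCr8, and 9 of the 10 genes had such a window (Spry2 had 2, Ereg is named only). Capitals mark matches, on either strand, to the cAMP response element TGACGTCA, its core TGACG, the AP-1 motif TGANTCA, the SP1 motif GGGCGG, the EGR1 motif GCGNGGGCG and TATAAA. The core lies within the full element, and the capitals are letters found in the window, not binding sites.
Errfi1, chr5:166606591-166606840, plus strand: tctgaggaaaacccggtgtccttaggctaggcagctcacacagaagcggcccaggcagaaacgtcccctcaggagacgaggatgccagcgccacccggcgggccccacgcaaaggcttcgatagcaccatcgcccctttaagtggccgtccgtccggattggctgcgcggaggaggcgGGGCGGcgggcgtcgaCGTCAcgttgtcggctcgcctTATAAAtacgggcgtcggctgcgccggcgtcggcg
Egfr, chr14:95378376-95378625, plus strand: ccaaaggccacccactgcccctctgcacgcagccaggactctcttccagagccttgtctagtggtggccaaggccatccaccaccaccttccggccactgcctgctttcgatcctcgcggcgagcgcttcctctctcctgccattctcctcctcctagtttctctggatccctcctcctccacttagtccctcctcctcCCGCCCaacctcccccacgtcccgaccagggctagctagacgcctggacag
Hbegf, chr18:28390221-28390470, minus strand: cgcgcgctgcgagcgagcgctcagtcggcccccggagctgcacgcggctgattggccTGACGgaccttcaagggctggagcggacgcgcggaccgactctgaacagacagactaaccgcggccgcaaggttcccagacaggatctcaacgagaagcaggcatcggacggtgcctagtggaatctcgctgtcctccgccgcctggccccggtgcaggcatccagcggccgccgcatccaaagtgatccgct
Areg, chr14:17265642-17265891, minus strand: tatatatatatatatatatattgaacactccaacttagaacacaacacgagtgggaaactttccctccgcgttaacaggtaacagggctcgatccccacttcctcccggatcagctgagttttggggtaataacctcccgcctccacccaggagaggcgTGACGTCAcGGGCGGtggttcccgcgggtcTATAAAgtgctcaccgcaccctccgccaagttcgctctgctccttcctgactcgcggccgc

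The full cAMP response element was found in the Areg window, 91 to 84 bases before the start, and 1.59% of the 33469 windows of this length in the table hold it. The core alone was found in Errfi1 (56 to 52 bases before the start) and in Hbegf (193 to 189 bases before it), and in 18.2% of all windows. SP1 matches were found in 8 of the 9 genes with a window, all but Hbegf, against 30.5% of all windows. The second Spry2 window held none. The motif holds only G and C. The member windows had 54.4 to 74.8% G and C, against a median of 51.2% over all windows. No share was adjusted for this. The SP1 match in Egfr lay 51 to 46 bases before the start. TATAAA was found in Errfi1, 35 to 30 bases before the start, and in Areg, 61 to 56 bases before it, against 12.9% of all windows. No AP-1 match was found in any of the 10 windows of the members, against 6.34% of all windows, and EGR1 matches were found in both Spry2 windows, against 4.29%. Among the Sprouty and Spred genes, the core was found in Spry2 and in Spred2.

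The arrays themselves hold 45018 spots, and 38.4 to 49.6% of the gene spots were well above background in a channel. No spot was saturated. The chromaffin markers on the array (Th, Dbh, Ddc, Chga, Chgb and Slc18a1) were well above background in both RNAs on all 12 arrays, the 3 endothelial and the 4 adrenal cortex markers on none. The glial markers S100b and Gfap were on none either, while the 4 fibroblast markers (median control signals 23.2 to 91.1) were dim but could be read. None of these markers was counted as changed, but at 120 min their log2 folds moved: the median was 0.38 for the 6 chromaffin and -0.62 for the 3 fibroblast markers readable then. The part of this in the results at 120 min was not tested. To be counted as changed, a probe had to show a fold of 2 or more (higher) or of 0.5 or less (lower) on each array of the time point, each with a spot p-value under 0.01, and had to be well above background in at least 1 RNA on each array.

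PC12 cells carried the transcripts of Errfi1, Egfr, Hbegf and Spred1 at all 6 time points. Their brightest probes were well above background in both RNAs on all 12 arrays. The other inhibitors and ligands were not: Spry1, Spry2, Spred2, Areg and Ereg, 5 of the 10 genes, were well above background in no RNA on any array, and Spry4 passed on both arrays at 60 and 120 min only. The median control signal was 4.73 for the Areg probe, 6.77 for Ereg, 5.46 for Spry2, 15.3 for Spred2 and 19.6 for the brighter Spry1 probe. For these 5 genes no fold is given, and the arrays cannot show whether they changed. The probes of 4 of them are printed, as laid on the array (5′ to 3′, positions on rat build rn4), since their dim signal holds for the part of the transcript they match. 
Spry2, chr15:90009823-90009882: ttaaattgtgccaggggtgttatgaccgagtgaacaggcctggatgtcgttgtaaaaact
Spred2, chr14:100797226-100797285: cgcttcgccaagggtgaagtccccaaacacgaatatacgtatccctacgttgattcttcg
Ereg, chr14:18521343-18522341, a span longer than the probe: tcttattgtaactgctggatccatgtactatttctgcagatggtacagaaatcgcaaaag
Areg, chr14:18466438-18466497: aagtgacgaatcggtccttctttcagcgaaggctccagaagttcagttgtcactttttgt

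**Figure D1:**
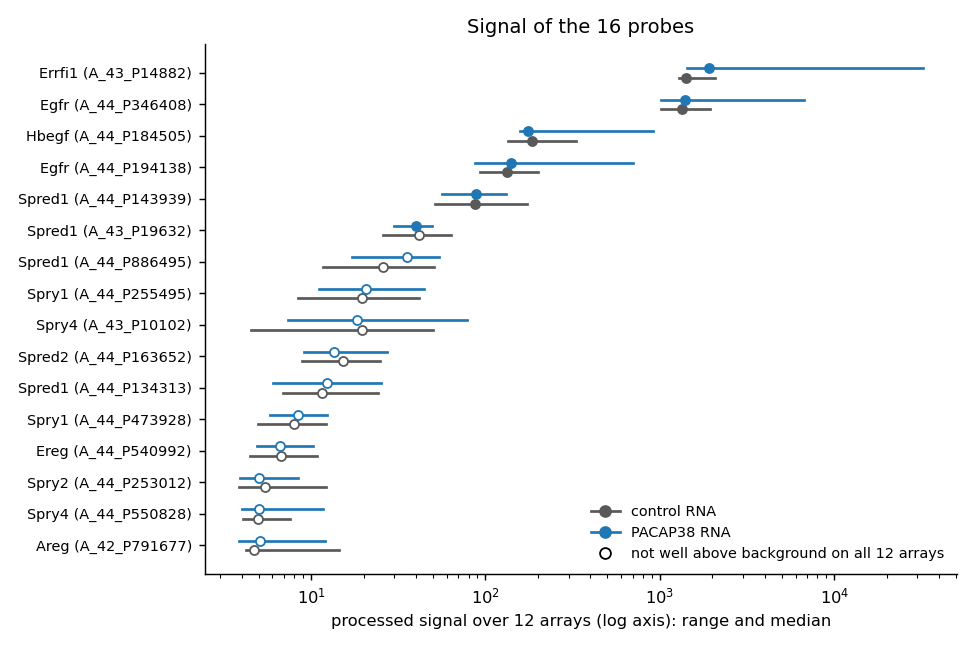
Processed signal of the 16 probes on a log axis, with the range (line) and median (circle) over 12 arrays for control RNA (grey) and PACAP38 RNA (blue); open circles mark probes that were not well above background on all 12 arrays. Errfi1, Egfr and Hbegf are the brightest, with PACAP38 ranges that reach 32394, 6704 and 917, and Areg, Spry2, Ereg and the second Spry4 probe have median control signals from 4.73 to 6.77.

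Of the 10 genes, 0 were counted as higher at 5, 10, 15 and 30 min, 1 at 60 min (Errfi1) and 3 at 120 min (Errfi1, Egfr and Hbegf). Over all probes that passed the filter on dim signals, the share counted as higher was, in the order of the 6 time points, 0%, 0.158%, 0.214%, 0.594%, 1.79% and 4.24%. None of the 10 genes was counted as lower at any time point, and the share of all probes counted as lower was, in the same order, 0%, 0%, 0.0635%, 0.245%, 0.782% and 3.37%. The filter was passed by 4 of the 10 genes up to 30 min and by 5 later. Thus 3 of the 5 genes that could be read at 120 min were counted, with only 5 readable genes behind that share.

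**Figure D2:**
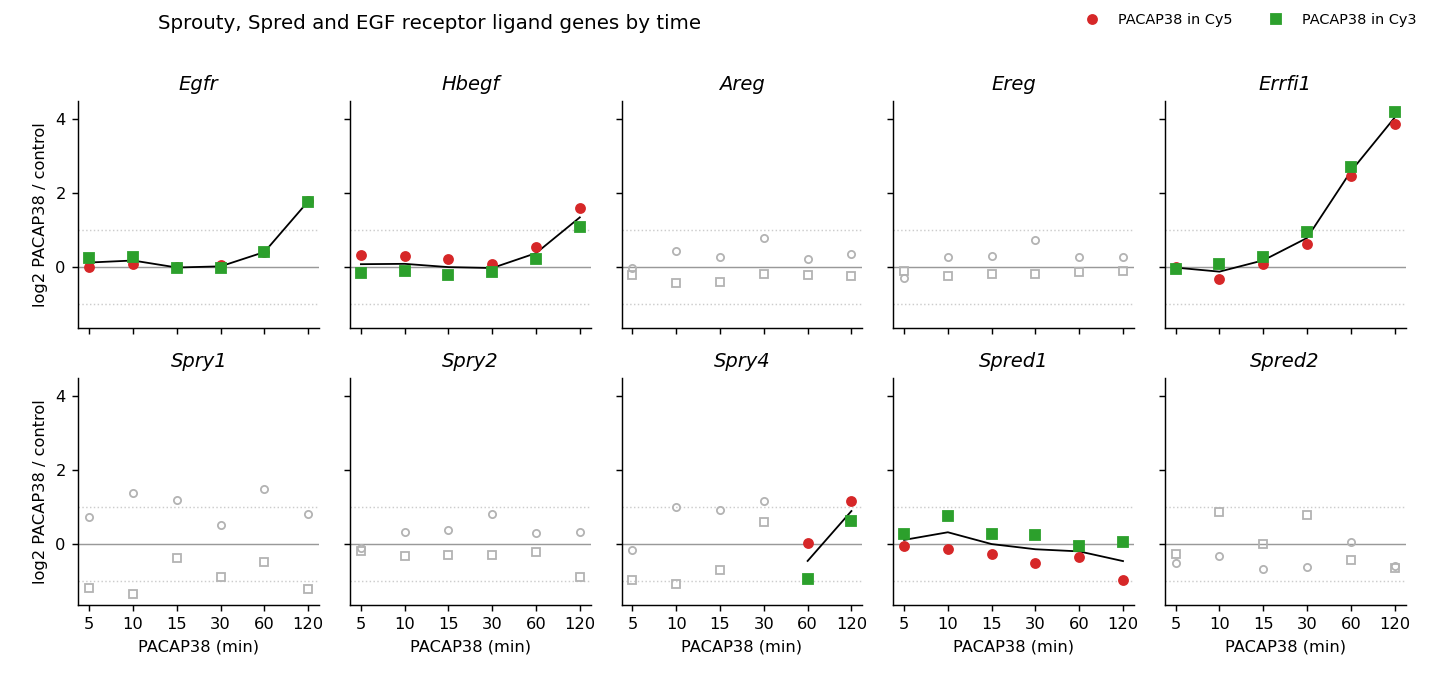
Log2 of PACAP38 over control by time for the brightest probe of each gene, with the array that has PACAP38 in Cy5 (red circles) and the array that has it in Cy3 (green squares), their mean as a line, dotted lines at 2-fold, and grey open symbols where the probe did not pass the filter on dim probes. Errfi1 left 0 first and reached a mean of 4.04, Egfr and Hbegf stayed near 0 up to 30 min, and Spred1 stayed within the dotted lines.

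Errfi1, the inhibitor of the receptor kinase, rose first and most. Its control signals were 1576, 1923, 1356, 1289, 1333 and 2071 in Cy3, in the order of the time points, and 1920.2, 1456, 1303, 1334, 1364 and 1762 in Cy5. With PACAP38 they were 1582, 1517, 1439.8, 1989, 7357 and 30350.4 in Cy5 and 1853, 1537, 1561, 2546, 8845 and 32394 in Cy3. All 4 PACAP38 values at 60 and 120 min lay above the highest of the 12 control values, and at 30 min both lay above their own controls but 1 of them below the highest control, that of 120 min in Cy3. The folds of the arrays with PACAP38 in Cy5 and in Cy3 were 1.54 and 1.91 at 30 min, rose to 5.52 and 6.48 by 60 min, and reached 14.7 and 18.4 by 120 min. At 5, 10 and 15 min the mean folds were 0.984, 0.913 and 1.13, and the arrays differed in sign at 5 and 10 min. From 30 to 60 min the fold grew 3.48 times, and from 60 to 120 min 2.74 times. At 120 min 0.323% of all probes that passed the filter had a larger fold. With a fold limit of 1.5 on both arrays, Errfi1 was also counted at 30 min, where 0.973% of all probes were. The Errfi1 probe lies at chr5:168025720-168025779 of rn4.

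The receptor itself, Egfr, rose late. Its brighter probe (chr14:97788051-97788110 of rn4) gave control signals of 1369.7, 1148, 1020.0, 1309, 1297 and 1944 in Cy3, in the order of the time points, and of 1485, 1177, 1058, 1379, 1445 and 1715 in Cy5. With PACAP38 the signals were 1361, 1212, 1019, 1353, 1714 and 6704 in Cy5 and 1752, 1410.2, 1029.7, 1356, 1902 and 5812 in Cy3. Both PACAP38 values of 120 min lay above all 12 control values, while those of 60 min lay above their own controls and below the Cy3 control of 120 min. The folds were 1.32 on both arrays at 60 min, and 3.45 and 3.39 at 120 min. From 5 to 30 min the mean folds lay between 0.986 and 1.12.

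Egfr was also read by a second, dimmer probe, which is printed here because it was laid down as 10 spots on each array and gives the technical spread of a fold within an array (rn4, chr14:97786789-97787499, a span longer than the probe).
Egfr, replicated probe: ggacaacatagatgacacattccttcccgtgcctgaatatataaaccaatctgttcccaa

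Over the 9 of these spots without an outlier flag, the log2 fold at 120 min was 1.81 ± 0.07 (SD, 9 spots) with PACAP38 in Cy5 and 1.72 ± 0.07 (SD, 9 spots) with PACAP38 in Cy3. At 60 min it was 0.28 ± 0.09 (SD, 8 spots) and 0.33 ± 0.12 (SD, 9 spots), so both probes gave a positive fold on both arrays at 60 min, under the 2-fold limit. At 5 min the same probe gave -0.22 ± 0.15 and 0.29 ± 0.14, and at 10 min -0.38 ± 0.15 (7 spots) and 0.31 ± 0.13 (SD, 9 spots). At these times the dye orientations differed by more than the spread of the spots, and their means were 0.03 and -0.03, so that folds of this size cannot be read from 1 orientation. The mean fold of the probe at 120 min was 3.41, against 3.42 for the brighter one. After normexp correction with loess these folds were 1.80 and 2.95, and with median centring 1.64 and 2.53, so that only the brighter probe stayed above the 2-fold limit.

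**Figure D3:**
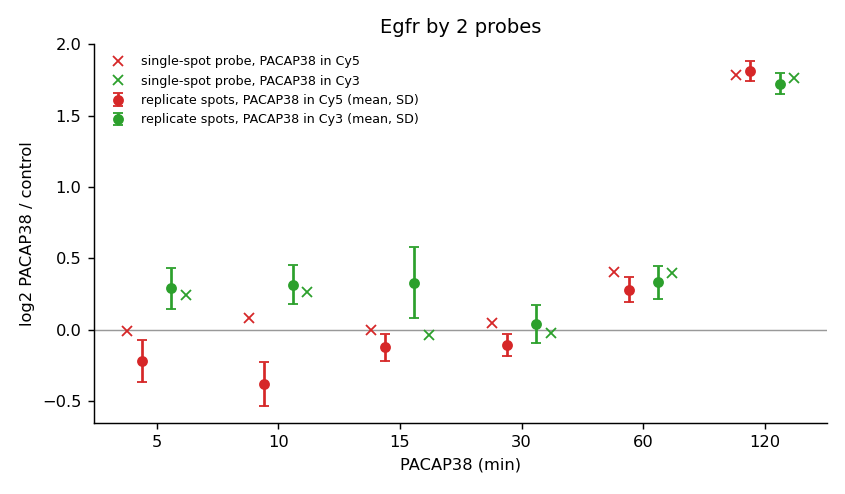
Log2 of PACAP38 over control for Egfr by time, with the mean and SD of the replicate spots of 1 probe on each array (circles with bars) and the value of the single-spot probe (crosses), in red for PACAP38 in Cy5 and green for PACAP38 in Cy3. At 120 min all 4 values lie between 1.72 and 1.81. At 5, 10, 15 and 30 min the means of the replicate spots of the dye orientations lie on opposite sides of 0.

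Among the ligands, only Hbegf, the heparin-binding ligand of the receptor, could be read, and it rose at 120 min. The control signals of its probe (chr18:29143654-29143713 of rn4) were 134, 182, 136, 167, 191 and 305 in Cy3, in the order of the time points, and 197, 179, 189, 175, 231 and 332 in Cy5. With PACAP38 they were 167, 221, 157, 178, 277 and 917 in Cy5 and 174, 165, 162, 158, 266 and 702 in Cy3. The 2 PACAP38 values of 120 min lay above all control values, and the controls of 120 min were themselves the brightest of the 12. After scaling between arrays the difference was smaller, with a control level of 224 at 120 min against 179 to 207 in the other control pools. The folds of Hbegf were 1.45 and 1.15 at 60 min, then 3.01 and 2.12 at 120 min, and the mean folds before 60 min lay between 0.977 and 1.06. After normexp background correction with loess the fold at 120 min was 1.70, under the limit. In this alternative the background correction, an offset of 50 added to both channels and the dye normalization changed together. Their parts in the lower fold were not tested. For Areg, an amphiregulin probe with a highest signal of 14.5 in any channel, and for Ereg, with 10.8, the transcripts were below what the arrays can read at every time point.

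**Figure D4:**
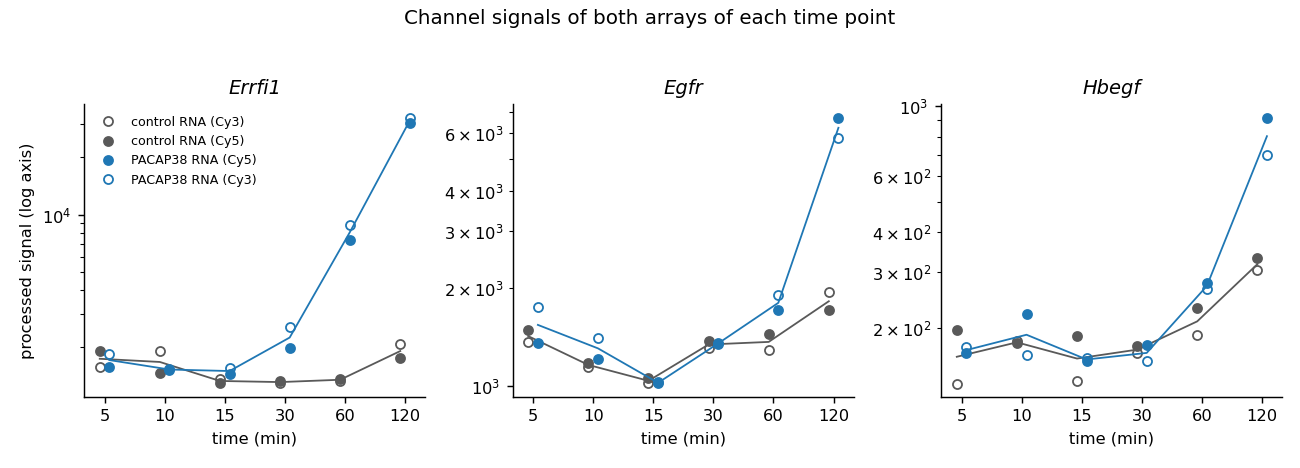
Processed signal of Errfi1, Egfr and Hbegf on a log axis by time, for control RNA (grey) and PACAP38 RNA (blue), with Cy5 filled, Cy3 open and the geometric mean of both arrays as a line. The PACAP38 line of Errfi1 leaves the control line between 15 and 30 min, those of Egfr and Hbegf between 30 and 60 min, and all 3 are farthest from it at 120 min.

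The Sprouty proteins inhibit the route from the receptor to ERK, and of these Spry4 alone could be read, late. Its brighter probe (chr18:31532750-31532809 of rn4) gave control signals of 35.3 (Cy3) and 28.3 (Cy5) at 60 min, and of 35.4 and 49.9 in the last pool. With PACAP38 it gave 35.5 (Cy5) and 14.7 (Cy3) at 60 min, but 78.2 and 76.7 in the last pool. The PACAP38 values of 120 min were above all its control values, with folds of 2.21 and 1.54, and only the array with PACAP38 in Cy5 passed the limits. At 60 min the folds were 1.01 and 0.519. After normexp correction with loess the mean fold at 120 min was 1.06 in place of 1.84, and the second Spry4 probe was well above background on no array. The 2 Spry1 probes and the Spry2 probe stayed dim throughout, with highest signals of 44.4 and 12.1 in any channel.

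Spred1, a membrane-bound inhibitor of Ras signalling, was present at a low level and was counted at no time point. The brightest of its 4 probes (chr3:103250014-103250073 of rn4) gave control signals from 51.6 to 172, with a median of 87.4, and PACAP38 signals from 56.1 to 131, with a median of 87.7. The PACAP38 range lay within the control range. With PACAP38 in Cy5 its folds were, in the order of the time points, 0.964, 0.906, 0.818, 0.692, 0.782 and 0.504. With PACAP38 in Cy3 they were 1.19, 1.69, 1.20, 1.17, 0.957 and 1.03 in the same order, so that the arrays had opposite signs at 5 of the 6 time points. The second probe (chr3:103243556-103243615) gave mean folds of 0.820 at 120 min and 0.826 at 60 min, and the third, which passed at 5 and 60 min, 1.22 and 1.23. The fourth Spred1 probe and the Spred2 probe were well above background on no array.

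The level of each pool was also set against all 6 control pools, on single-channel signals made comparable between arrays. The log2 control level was 10.59 ± 0.26 (SD, n = 6 pools) for Errfi1, 10.39 ± 0.16 for Egfr, 7.61 ± 0.13 for Hbegf, 6.56 ± 0.22 for the brightest Spred1 probe and 4.19 ± 0.73 for the brighter Spry4 probe (each SD over 6 pools). The PACAP38 pools of Errfi1 lay above the highest control pool at 30, 60 and 120 min, those of Hbegf at 60 and 120 min, those of Egfr at 5, 60 and 120 min, and that of Spry4 at 120 min. The second Egfr probe did so at 120 min only, and at 15 min the brighter Egfr probe lay below all control pools (10.22 against a lowest control of 10.23 on the log2 scale, and no longer after quantile scaling over all channels). For the brightest Spred1 probe no PACAP38 pool lay above all controls and none below, while the third, dim one lay above them in 4 pools (5, 15, 60 and 120 min). At 120 min the level was 11.6 times the highest control pool for Errfi1, 2.88 times for Egfr, 2.53 times for Hbegf and 1.83 times for Spry4. The levels were read on different probes and are not compared between genes. The share of all probes with a pool outside the control range was not counted, so these positions are a description only.

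Whether the ratio of PACAP38 to control followed time was tested with limma, as a slope of the log2 ratio on log2 minutes over 6 time points, with p-values adjusted by the Benjamini-Hochberg method over 20203 probes. Of the 16 member probes 8 were fitted, and 0 passed an adjusted p of 0.05 in limma, where 0.525% of all probes passed with a positive and 0.203% with a negative slope. At an unadjusted p of 0.05 there were 4 with a positive slope and 1 with a negative one, where 2370 and 3435 of the 20203 probes were. The log2 ratio of Errfi1 grew by 0.93 (SE 0.15) per doubling of time, with a limma adjusted p of 0.0573. For Egfr the slopes were 0.30 (SE 0.11) and 0.31 (SE 0.11) by its 2 probes, with limma adjusted p-values of 0.152 and 0.143. Hbegf had a slope of 0.24 (SE 0.08, limma adjusted p = 0.140), Spry4 of 0.21 (SE 0.13, limma adjusted p = 0.316) and the brightest Spred1 probe of -0.14 (SE 0.04, limma adjusted p = 0.0898).
The result depends on the shape given to time. On minutes in place of log2 minutes, the limma fit called 4 member probes with a positive slope (Errfi1, both Egfr probes and Hbegf) and 1 with a negative slope (the brightest Spred1 probe), where 10.2% of all probes were positive and 16.2% negative. With the slide as a random block it called Errfi1 as positive and the same Spred1 probe as negative, where 5.26% of all probes were positive and 6.61% negative. Without the 5 min time point Errfi1 alone was called, with a slope of 1.19 and a limma adjusted p of 0.0411, where 0.598% of all probes were positive and 0.158% negative.

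**Figure D5:**
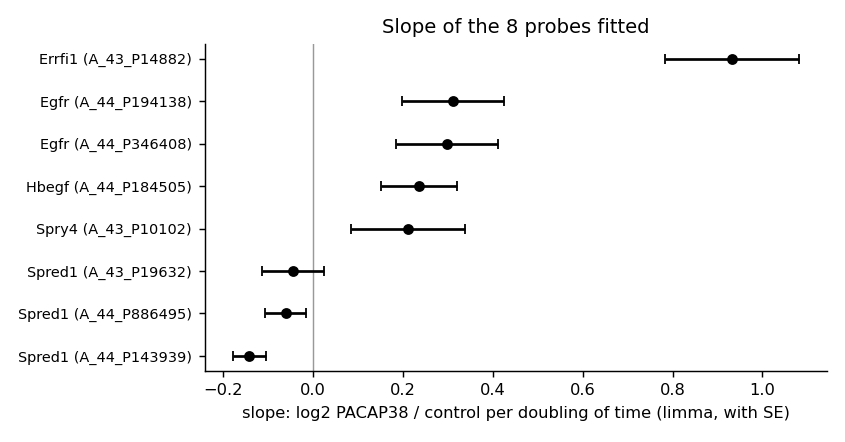
Slope of the log2 ratio of PACAP38 to control on log2 minutes for the 8 member probes fitted by limma over 6 time points, with bars for the standard error. Errfi1 has a slope of 0.93, the Egfr, Hbegf and Spry4 probes lie between 0.21 and 0.31, and the Spred1 probes lie below 0.

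The rest of the pathway was read from gene lists, by the brightest probe of each gene. Of the 7 other EGF family ligands on the array (Egf, Tgfa, Btc, Epgn, Nrg1, Nrg2 and Nrg3), 0 were counted, and Nrg2 was the only one well above background on all arrays, with a fold of 0.877 at 120 min. Of 10 receptor tyrosine kinases and related receptors, 6 could be read at 120 min and 0 were counted. Among them, Erbb2, the partner of the EGF receptor, gave 1.06 and 0.174 on the 2 arrays at 120 min, where PACAP38 signals of 68.3 and 18.5 left it dim on the second of them, and a mean fold of 0.915 after normexp correction with loess. Erbb3 and Erbb4 were well above background on no array. The median log2 fold of the 6 receptors at 120 min was -0.05, against -0.03 for all probes. Of the 5 genes for release of the ligands (Adam9, Adam10, Adam17, Rhbdf1 and Rhbdf2), 0 were counted at any time point. Adam17, the main protease for Hbegf and Areg, passed the filter at 1 time point only.

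Among 14 other inhibitors and attenuators on the array, 0 were counted as higher and 1, Cblb, as lower, at 120 min. Cblb encodes a ubiquitin ligase that marks activated receptors for breakdown. Its control signals at 120 min were 517 (Cy3) and 534 (Cy5) and its PACAP38 signals 234 (Cy5) and 171 (Cy3). These were dye-exchanged readings of 1 control pool and 1 PACAP38 pool, and the folds of Cblb were 0.452 and 0.320. After normexp correction with loess its mean fold was 0.620, outside the limit. The median log2 fold of the 11 genes of this list that could be read at 120 min was -0.07. Spred3, the third Spred gene, was bright (median control signal 1272) and gave 0.761 and 0.782 at 120 min, and Spry3 was well above background on no array. Of the 18 genes of the cascade from Ras to ERK, 0 were counted at any time point, and the median of the 15 that could be read at 120 min was -0.06. At 120 min Map2k1 gave 1.27 and 1.28, Mapk3 1.73 and 1.27, Sos2 0.527 and 0.590 and Rps6ka1 0.616 and 0.725.

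Of the 8 transcripts used to read ERK activity, 1 was counted: Phlda1 was higher at 60 and 120 min. Its control signals were 52.0 (Cy3) and 64.0 (Cy5) at 60 min, then 253 and 362 at 120 min, and its PACAP38 signals were 501 (Cy5) and 497 (Cy3), then 5161 and 4643. The PACAP38 values lay above all its control values, and the controls of 120 min were themselves brighter than those of the other time points. The folds were 9.64 and 7.76 at 60 min, then 20.4 and 12.8 at 120 min, and the mean folds after normexp correction with loess were 2.69 and 8.14. The other readable genes of the list did not pass: at 120 min Dusp6 gave 1.57 and 1.39, Etv4 1.44 and 1.13, Etv5 0.756 and 0.701 and Ccnd1 1.01 and 0.809. Epha4 did not pass the filter at 120 min: its PACAP38 RNA was above background on neither array and its control RNA on 1, with PACAP38 signals of 20.7 and 19.9 and a level at least 2.25-fold lower than control on the processed signals, but with a mean fold of 0.912 after normexp correction with loess. Its slope on log2 minutes was -0.40 (SE 0.16, limma adjusted p = 0.171). Dusp4 and Epha2 were well above background on no array. The median log2 fold of the 5 genes that could be read at 120 min was 0.35, against -0.03 for all probes.

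The courses most like those of the 3 genes that rose were looked up among the brightest probes of 883 other named genes counted at 1 or more time points, by Pearson's r of the mean log2 ratios over 6 time points. All genes were read on the same pools and arrays, and each slide held 2 of the time points, so r is given as a description. For Errfi1 these were Ezr (r = 0.999), Prpf38a (r = 0.999) and Klhl15 (r = 0.998), with folds of 2.05, 1.93 and 2.86 at 60 min. For Egfr they were Adgrl2 (r = 0.999), Slc9a2 (r = 0.999) and Sh2d5 (r = 0.997), with folds of 2.59, 2.48 and 3.86 at 120 min. For Hbegf they were Iqsec3 (r = 0.999), Adgrl2 (r = 0.999) and Ehd4 (r = 0.998), with folds of 2.56, 2.59 and 3.18. Adgrl2 thus stood among the 3 nearest courses of both the receptor and its ligand, all with folds between 0.977 and 1.12 up to 30 min.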

How the data were processed

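Signals of 12 Agilent 4x44K rat arrays of PC12 cells were used. The authors made the intensity values with Feature Extraction (version 12.0.3.1 in the deposited files, 11.0.1.1 in the submitters' notes): the processed intensity of each channel had its background subtracted and its dye bias taken out by LOWESS, and spots near background carry a surrogate value. The deposited files also hold unnormalized mean and background intensities and a p-value that the authors' software gave each spot's log ratio, and the deposited table of ratios is the log10 of processed Cy5 over Cy3. None was turned for the dye exchange.

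Here each ratio was turned to PACAP38 over control. Control spots (1639) and outlier spots (197 to 267 per array) were left out, and spots of 1 probe were averaged (p-value by the median, above background if at least 0.5 of the spots were). A gene is its brightest probe. Unless both arrays are given, folds are geometric means over them. In limma 3.58.1 (R 4.3.3), single-channel levels were made from the processed signals with Aquantile scaling (quantile over all channels as an alternative), alternative ratios from the mean and background signals with normexp (offset 50) and loess or median centring, and slopes with lmFit and eBayes for probes above background at 1 or more time points. The normexp offset was added to both channels, which by arithmetic brings ratios of dim probes closer to 1. The slope fit was tested on simulated data. The members and all gene lists were chosen with earlier results of these data known. All 10 members, every list gene counted at a time point and the 3 most similar courses per counted member were named; values of other list genes were chosen after they were seen. The number of arrays limits the precision. The proteome was not analysed here.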

Additional observations from a re-analysis of the deposited data

Results flagged for a closer look

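A probe stood apart in the control pools. The third Spred1 probe had a control level of 16.2 at 10 min, against 24.1 to 30.3 in the 5 other control pools, and on log2 levels this gap was 0.634 of the range of the 6 pools, above Dixon's 95% critical value. On the linear signals it was 0.559, below that value. Chance flags about 1 in 20 groups, and 8 probes were looked at. The probe was well above background on 3 of 12 arrays in control RNA. The brightest Spred1 probe was also lowest in the control pool of 10 min (71.5, against 92.3 to 113), with ratios of 0.559 on log2 levels and 0.502 on linear signals that did not pass. Its fold at 10 min, 1.24, was the highest of its 6 mean folds. The second Spred1 probe was lowest in that pool too (31.4, against 39.5 to 53.2). Its ratios, 0.438 on log2 levels and 0.374 on linear signals, did not pass.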

How the results depend on the processing

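The count of member genes called at each time point was within 1.5 times the reported count under all alternatives tried, except 1 in place of 0 counted as higher at 30 min (Errfi1) with a fold limit of 1.5. At 120 min the count ranged from 3 to 4 with 1 array alone (Spry4 was added with PACAP38 in Cy5) and was 2 with normexp and loess or median centring (without Hbegf); at the other time points 1 array alone gave the reported counts. The slope on time was the least stable result: in place of 0 member probes with a positive slope and 0 with a negative one, limma gave 4 and 1 on minutes, and 1 and 1 with the slide as a random block, whose estimated correlation of -0.26 between time points of a slide was negative. Leaving out a time point gave 0 to 1 with a positive and 0 with a negative slope, and 1 array alone gave 0 of each. With the slide as a fixed block, 2 residual degrees of freedom were left and no probe of the array was called. The late minus early contrast called no probe either (1308 and 1393 at an unadjusted p below 0.05 with a positive and a negative difference). No slope of a member gene changed sign. Normexp lowered the folds at 120 min to 13.6 (loess) and 11.8 (median centring) for Errfi1, 2.95 and 2.53 for the brighter and 1.80 and 1.64 for the second Egfr probe, 1.70 and 1.51 for Hbegf and 1.06 and 1.05 for Spry4. Median centring moved the median of all probes to 0.11 at 15 min and -0.11 at 120 min (log2). Levels in control pools moved by less than their SD under the other scaling. The deposited table of ratios gave the same counts. Dim signals set the limit: 8 of the 16 member probes were well above background on no array. Every ratio, and so the slope, already pairs a PACAP38 pool with the control pool of its time point. Beyond that, no paired analysis was possible because the replicate numbers mark only the dye orientation of the same pools.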
